A study of Mus musculus with 12 samples.

Results

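The nuclear genes for the subunits of the mitochondrial respiratory chain and the ATP synthase were examined in muscle satellite cells, the resident stem cells of skeletal muscle. Genes were taken by symbol from both deposited count tables (the Nduf, Sdh, Uqcr, Cox4 to Cox8 and Atp5 series). Of 97 matching genes, 8 pseudogenes and 8 genes with a mean under 1 CPM (counts scaled to library size) over the 12 libraries were left out. The remaining 81 of 55385 genes comprised 35 of complex I, 4 of complex II, 8 of complex III, 17 of complex IV and 17 of complex V. Ndufa4 and Ndufa4l2 were placed with complex IV, where the NDUFA4 protein is now known to belong. The members closest to the limit were Cox7a1, Cox6a2 and Ndufa4l2, and the nearest gene below it was Cox4i2 at a mean of 0.819 CPM, with counts divided by column totals.

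The cells came from hindlimb muscle of C57BL/6J mice and were frozen in liquid nitrogen directly after isolation. Libraries of 3 females and 3 males labelled heterozygous for Keap1 (Het) were compared with those of 3 females and 3 males labelled Keap1 knockout (KO). The labels name neither the allele, the Cre driver nor the age of the mice, and the word used for the control genotype was read as heterozygous. The numbers in the labels were read as animals, and libraries are named by genotype and number here, such as Het165. Females and males were deposited in 2 tables, so that sex and table cannot be told apart, and the question asked was whether the effect of KEAP1 and NRF2 on satellite cells depends on sex.

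The respiratory chain passes electrons from NADH (complex I) and succinate (complex II) through coenzyme Q, complex III and cytochrome c to oxygen at complex IV. Complexes I, III and IV pump protons across the inner mitochondrial membrane, and complex V, the ATP synthase, lets them flow back through its turning c ring to make ATP. Each complex except complex II combines subunits from nuclear genes with subunits from mitochondrial DNA. Resting satellite cells hold few mitochondria and build more when activated. KEAP1 holds NRF2 (gene Nfe2l2) at low levels by presenting it for degradation. NRF2 is best known for antioxidant genes, and is not the same protein as nuclear respiratory factor 1 (NRF1, gene Nrf1), a regulator of many respiratory genes.

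The promoters give the sequence features that the selection by symbol did not use. RefSeq windows from 250 bases before to 50 after the start site (GRCm38.p6) were found for 67 of the 81 members and for 27025 genes in all. The NRF1 motif with 1 free base, searched like all motifs on both strands, was present in 25.4% of these members (17 genes) and in 5.19% of all genes. The strict NRF1 palindrome, which the free form includes, was in 5 members (7.46%) and in 1.07% of all genes. The antioxidant response element TGACNNNGC, the motif bound by NRF2 with small MAF proteins, was in 9 members (13.4%), against 14.0% of all genes. Further motifs were YY1 (AAGATGGC, 14.9% of members and 3.19% of all genes), the ETS motif bound by GABP (CCGGAAG, 23.9% and 9.93%) and the estrogen-related receptor motif (CAAGGTCA, 5.97% and 1.76%). The TATA motif TATAAA was in 8.96% of members and 15.7% of all genes. Members' windows had a median GC content of 57.5%, against 52.7% over all genes, and a match is a description of letters and not a binding site.

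Upstream sequences are printed for the 3 c ring genes, because these 3 loci encode the same mature c subunit and their transcripts had different patterns in the counts, and for 2 complex I genes with the motifs. These 5 were chosen after the values were seen. Each is the 250 bases before the start site, 5′ to 3′ on the minus strand of GRCm38.p6, with NRF1 and antioxidant response element matches in capitals. The windows are chr11:96075632-96075881 for Atp5g1, chr15:102671048-102671297 for Atp5g2, chr2:73911327-73911576 for Atp5g3, chr16:37654369-37654618 for Ndufb4 and chr4:123718187-123718436 for Ndufs5.
Atp5g1: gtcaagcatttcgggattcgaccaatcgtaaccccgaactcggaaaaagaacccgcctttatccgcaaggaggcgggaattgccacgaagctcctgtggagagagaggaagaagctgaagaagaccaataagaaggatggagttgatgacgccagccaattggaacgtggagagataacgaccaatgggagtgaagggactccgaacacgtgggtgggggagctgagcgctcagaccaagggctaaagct
Atp5g2: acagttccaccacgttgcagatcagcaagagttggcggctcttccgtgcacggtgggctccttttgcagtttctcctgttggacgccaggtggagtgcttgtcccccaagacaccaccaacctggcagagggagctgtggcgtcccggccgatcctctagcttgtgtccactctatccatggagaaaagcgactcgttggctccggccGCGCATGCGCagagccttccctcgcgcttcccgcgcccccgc
Atp5g3: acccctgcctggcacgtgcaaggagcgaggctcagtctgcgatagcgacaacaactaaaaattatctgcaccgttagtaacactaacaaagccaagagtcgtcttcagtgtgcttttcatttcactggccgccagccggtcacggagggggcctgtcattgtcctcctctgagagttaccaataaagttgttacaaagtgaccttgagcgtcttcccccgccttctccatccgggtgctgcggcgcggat
Ndufb4: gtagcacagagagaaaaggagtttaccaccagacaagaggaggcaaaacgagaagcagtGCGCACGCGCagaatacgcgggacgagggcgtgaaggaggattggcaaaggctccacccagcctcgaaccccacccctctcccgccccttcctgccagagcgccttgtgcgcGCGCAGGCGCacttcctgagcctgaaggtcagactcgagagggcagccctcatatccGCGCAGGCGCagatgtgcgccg
Ndufs5: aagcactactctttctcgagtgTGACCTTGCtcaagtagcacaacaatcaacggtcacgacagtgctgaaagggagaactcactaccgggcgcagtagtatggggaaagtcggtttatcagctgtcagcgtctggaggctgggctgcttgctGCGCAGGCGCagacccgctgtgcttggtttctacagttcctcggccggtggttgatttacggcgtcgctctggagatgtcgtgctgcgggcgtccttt
Atp5g2 held the strict NRF1 palindrome close to its start, while the letters of neither motif were in the 250 bases printed for Atp5g1 and Atp5g3. Atp5g3 did have an NRF1 match with 1 free base at position 13 after its start, within the searched window and beyond the printed bases. Ndufb4 held 3 NRF1 matches, and Ndufs5 held 1 NRF1 match and 1 antioxidant response element. Ndufs5, an accessory subunit of complex I and the only printed gene with the NRF2 motif, had a log2 fold change of 0.019 ± 0.16 (SE) in females and -0.011 ± 0.22 in males (KO-labelled over Het). For Ndufb4, another accessory subunit, the values were 0.0054 ± 0.19 and 0.31 ± 0.20. About 18.3% of the 50-base stretches of Ndufb4 transcripts and 21.7% of those of Ndufs5 also occur in other genes, so that their counts are uncertain.

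Total counts ran from 13042039 to 19273245 per library, and 75 members had at least 100 counts in every library, the exceptions being Cox6a2, Cox6b2, Cox7a1, Cox8b, Ndufa4l2 and Atp5s. Keap1 itself was not lower in the libraries labelled KO (female Het 9.49, 7.10 and 7.93 CPM, female KO 11.8, 12.8 and 11), and the labels do not say which part of the gene was deleted. The NRF2 target Nqo1 stood at 4.39 ± 1.14 CPM (SD, n = 3) in Het females and 91.6 ± 15.4 in KO-labelled females, and at 3.46 ± 1.17 and 33.9 ± 3.10 in males. The 10 satellite cell markers were present in every library. Their summed level was 11128 to 12870.2 CPM in Het and 7519.8 to 9539.8 in KO-labelled females, and 14867 to 17748 in males. A single gene, Sdc4, made up the largest part of these sums (means of 7221 and 4849 CPM in Het and KO-labelled females). By log2 fold change 8 of the 10 markers were below 0 in females, and Itga7 and Cdh15 were above 0. Pax7 had means of 12.9 and 12.5 CPM. The 15 leukocyte markers summed to 123 to 185 CPM in Het and 55.3 to 85.1 in KO-labelled females, with Itgam at 0 in 2 libraries and C1qa in 1. Those of fibro-adipogenic progenitors summed to 2913 to 7081 over the 12 libraries.

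Respiratory genes took 0.748 to 0.762% of all counts in Het females and 0.812 to 0.847% in KO-labelled females. In males the shares were 0.670 to 0.759% and 0.618 to 0.769%. The female groups did not overlap on this scale, but they did once library composition was taken into account. Then the members summed to 7056 to 7541 CPM in Het and 7246 to 8194 in KO-labelled females. A single transcript, Atp5b, made up a large part of this. Without it the sums were 6211 ± 390.4 (SD, n = 3) and 6330.2 ± 343 CPM in females, and 6238 ± 395 and 6197 ± 887 in males. The groups overlapped in both sexes with Atp5b and without it.

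Levels between genes were compared as CPM per kilobase of exon, averaged over the 12 libraries. Cox8a (286), Atp5b (280.2) and Cox4i1 (271) stood highest, and Ndufa4l2 (0.966), Cox6b2 (1.41), Cox6a2 (1.43), Cox7a1 (1.85), Ndufb2 (2.68) and Cox8b (3.13) lowest. Cox8a and Cox4i1 encode subunits of cytochrome c oxidase found in most tissues, and Atp5b the catalytic beta subunit of the ATP synthase. Within complex I the range was from Ndufb2 at 2.68 to Ndufa2 at 121. Complex II ranged from Sdhc at 15.7 to Sdhd at 82.1, which are both membrane anchors of the enzyme. In complex III the lowest was the core protein gene Uqcrc2 at 38.5 and the highest the Rieske iron-sulfur protein gene Uqcrfs1 at 132. In complex V the range ran from Atp5s at 3.26 to Atp5b. Atp5s encodes factor B, which is coupled to the synthase but is no subunit of the enzyme proper. Exon length here is that of all annotated exons of a gene, so genes with long unused exons appear low on this scale.

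**Figure D1:**
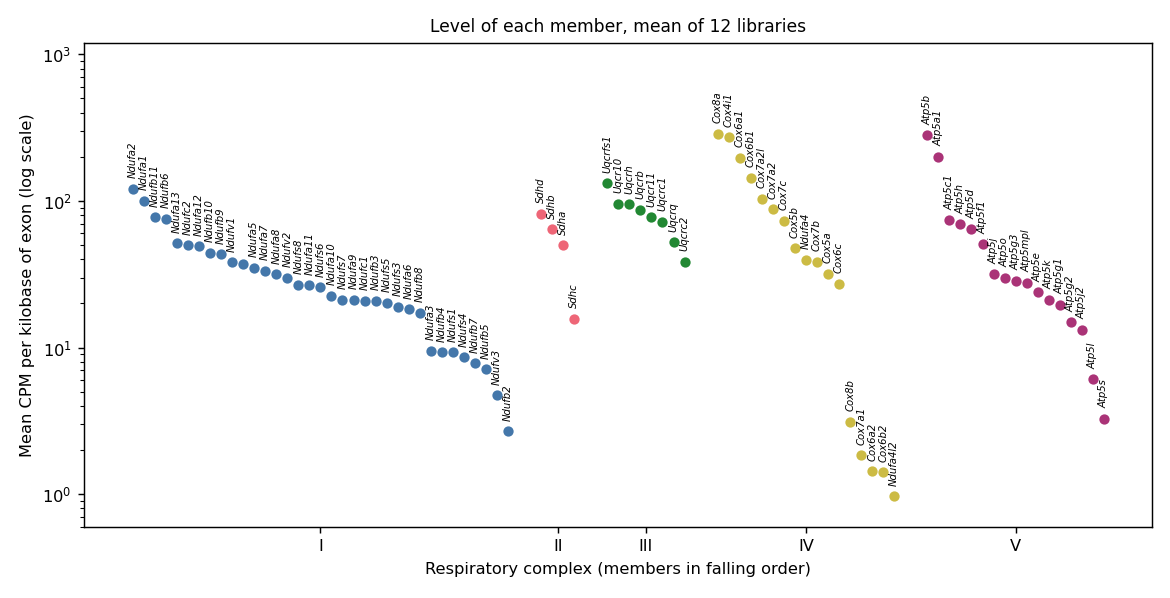
Each point is 1 respiratory gene, placed by complex along the x axis in falling order, with its mean CPM per kilobase of exon over 12 libraries on a log y axis. The 5 isoform genes Cox8b, Cox7a1, Cox6a2, Cox6b2 and Ndufa4l2 lie apart from the other complex IV genes, at 3.13 and below.

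Complex IV has paralogs with known tissue preferences. The general forms Cox6a1, Cox7a2 and Cox8a had 197, 87.9 and 286 CPM per kilobase, and their heart and skeletal muscle forms Cox6a2, Cox7a1 and Cox8b had 1.43, 1.85 and 3.13. Cox6b1 stood at 144 and Cox6b2, known from testis, at 1.41. For Ndufa4 the level was 39.6, against 0.966 for Ndufa4l2, which is known from hypoxic cells and vascular smooth muscle. Cox4i1 was at 271, while Cox4i2, a lung and hypoxia form that fell below the limit of 1 CPM, was at 1.05. The general forms thus made up most of each pair in the averages over these libraries.

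The 3 muscle forms together reached 10.2 CPM in female KO166 and 5.55 in female Het181, and 1.29 to 3.47 in the other 10 libraries. Markers of myofibres, the mature muscle cells, 12 genes in all, summed highest in the same libraries, 784 CPM in female KO166 and 440.3 in female Het181. In the other libraries the markers summed to 54.1 to 283 CPM, with Tnnc2 at 0 in 7 of 12 libraries. Cox6a2 was at 0.586, 0.628 and 1.53 CPM in Het and 5.31, 0.297 and 0.954 in KO-labelled females. These values overlapped, and without KO166 the log2 fold change of Cox6a2 in females went from 1.28 to -0.53. The part of myofibre RNA in these values was not tested.

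The main comparison set KO-labelled against Het libraries within each sex by the quasi-likelihood test of edgeR with Benjamini-Hochberg adjustment over all genes tested. No respiratory gene passed an adjusted p of 0.05. In females 0 of 80 members were called, where 2.27% of all 14036 genes tested were (1.29% higher and 0.983% lower). In males 0 of 80 were called, against 0.861% of 13361 genes (0.704% higher and 0.157% lower). Averaged over the sexes 0 of 81 were called, against 3.41% of 14772 genes (2.15% higher and 1.27% lower). For the female minus the male change 0 of 81 were called, against 0.00677% of 14772 genes, which is 1 gene. Ndufa4l2 was too low for the test in females and Cox6a2 in males. At an unadjusted p of 0.05 the test gave 6 higher and 3 lower members in females, where 17.9% of all genes reached that level (8.89% higher and 9% lower). It gave 1 higher and 1 lower in males, where 12.4% of all genes did (7.31% and 5.05%). For the average over sexes 3 members reached it, all higher (Ndufc2, Cox7a2l and Atp5g2), against 17% of all genes (9.04% higher and 7.96% lower). DESeq2 gave 1 member in females, Atp5g2, where it called 6.12% of all genes, and 0 in males, and limma voom gave 0 in each. Without Het165, edgeR called 2 members higher (Atp5g2 and Sdhc) and 5 lower (Ndufa12, Ndufb8, Ndufb10, Uqcr11 and Uqcrc1) in females, of 81 tested. In that setting 5.25% of all genes tested were called higher and 4.99% lower, 10.2% in all, so that the members' count is near the background. In bulk RNA, fewer cells of a type and less RNA per cell cannot be told apart. The parts of the lower marker sums for satellite cells and leukocytes in KO-labelled females were not tested.

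For 74 of 80 members in females and 76 of 80 in males the 95% interval of the change lay within 2-fold in either direction, which is 92.5% and 95% of them. Among genes of similar level the shares were much the same, 91.6% and 95.8%, while over all genes tested they were 65.8% and 72.4%. Within 1.5-fold lay 55 and 63 members. The wide exceptions were Atp5g2 and Ndufb8 in females, Ndufa4l2 in males, Cox6a2 in females, and Cox6b2, Cox7a1 and Cox8b in both sexes. The median log2 fold change over members was 0.045 in females (45 of 80 above 0) and -0.012 in males (37 of 80 above 0), where the medians over all genes tested were 0.0044 and 0.011. The median size of the change was 0.14 in females and 0.097 in males. Among all genes with similar levels it was 0.19 and 0.16. Of 79 members tested in both sexes 34 had the same sign in both, 43.0%, against 54.0% of all genes.

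Single libraries were separated by genotype for a few members. All 3 KO-labelled libraries lay above all 3 Het for 13 members in females and 2 in males, and below for 2 in females and 4 in males. Over all genes the groups did not overlap for 22.3% in females (12.1% above and 10.1% below) and 17.2% in males (9.39% above and 7.8% below), so that the members' 15 and 6 were 18.8% and 7.5% of those tested. By complex, the female median was -0.025 for complex I, -0.059 for II, -0.090 for III, 0.18 for IV (14 of 16 above 0) and 0.069 for V. The male medians were 0.067, 0.0054, -0.021, -0.053 and -0.063. Complexes IV and V thus had medians above 0 in females and below 0 in males, and complexes I and II the reverse. All but the 0.18 of complex IV were smaller than the SD between animals of the median over all members (0.15 in females and 0.23 in males). That SD describes single animals over all members and is not the error of a complex's median change, so it does not set complex IV apart. The 0.18 includes 4 tissue or condition isoforms with few counts, at 0.33 to 1.28 in females. For the 10 general subunits of complex IV the female median was 0.11. The leading members of each complex follow, in the order of electron flow.

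**Figure D2:**
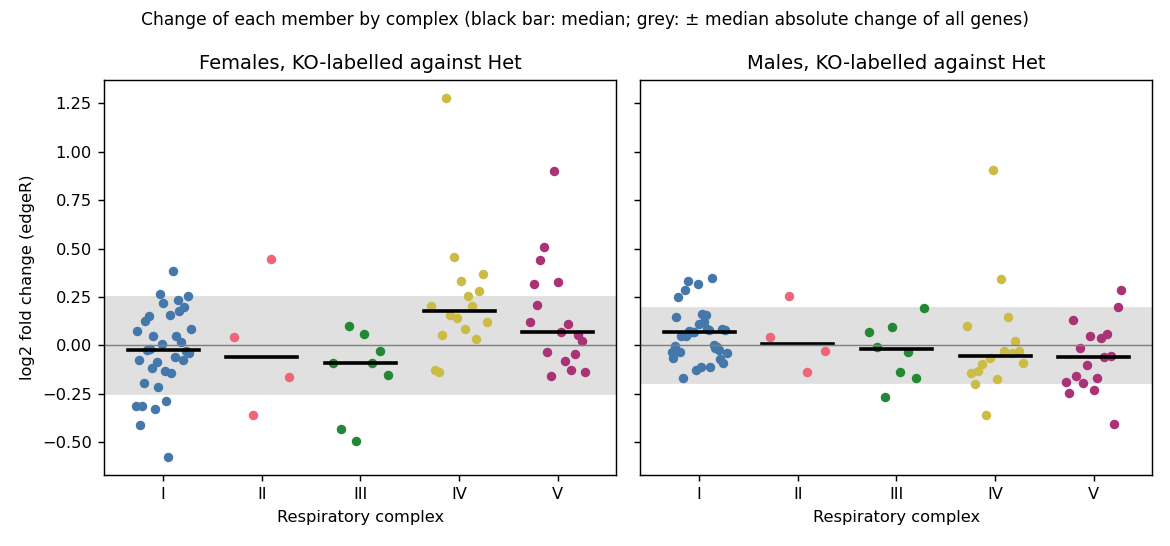
Each point is the log2 fold change of 1 member (y axis, KO-labelled over Het, edgeR) by complex (x axis), females left and males right. The black bar is the median and the grey band spans plus or minus the median size of change of all genes tested; most members lie inside it, and Cox6a2 in females and Cox7a1 in males are the highest points, both from few counts.

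In complex I, 16 of 35 members were above 0 in females and 21 in males, with 0 called in either. The catalytic core carries the flavin and iron-sulfur clusters. Its 7 nuclear genes had a median of 0.049 in females and 0.00047 in males.

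Among the 28 accessory subunits, which surround and stabilize the core, Ndufb8 of the membrane arm (chr19:44548572-44555440) had 55.9, 47.0 and 88.1 CPM in Het females and 43.4, 40.8 and 43.9 in KO-labelled females. The KO-labelled libraries were the lowest and nearly equal, and the Het animals spread widely. The log2 fold change was -0.58 ± 0.20 with an adjusted p of 0.167, and without a filter on low counts it was called (adjusted p of 0.0187). In males it was 46.2, 56.7 and 55.6 against 55.8, 75.3 and 41.1 CPM, and the sexes differed by -0.69 on the log2 scale (adjusted p of 0.382). Ndufa12, at the junction of the arms, resembled it in females with 89.2, 60.4 and 113 against 66.0, 63.8 and 67.9 CPM (adjusted p of 0.281), though Het165 lay below all KO-labelled libraries. About 17.7% of the 50-base stretches of Ndufa12 transcripts also occur in another gene, Gm15920. Ndufc2, a small membrane arm subunit, went the other way from Ndufb8 and Ndufa12 in females. Its levels were 40.0, 39.9 and 36.4 CPM in Het and 45.7, 56.2 and 50.3 in KO-labelled females, without overlap, a log2 difference of 0.38 ± 0.14 (adjusted p of 0.186). Ndufc2 in males overlapped at 26.6 to 32.8 and 28.4 to 34.5 CPM.

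Ndufa6, a subunit of the LYR motif family, and Ndufa8 had low p in males. Ndufa6 had 33.3, 30.9 and 35.2 CPM in Het and 40.0, 35.3 and 45.6 in KO-labelled males, just apart, with a log2 difference of 0.28 ± 0.15 (adjusted p of 0.472). Ndufa8 had 19.8, 29.1 and 21.7 against 33.8, 33.1 and 21.9 CPM, and these overlapped (adjusted p of 0.562). The most abundant complex I member per kilobase, Ndufa2, had mean levels of 70.3 ± 12.4 and 61.5 ± 1.60 CPM in females (SD, n = 3) and 73.1 ± 8.91 and 71.3 ± 11.5 in males. Ndufb2, the lowest, had 14.1 ± 1.94 and 12.2 ± 1.14, and 16.6 ± 2.21 and 17.4 ± 2.04. Neither set of means differed by more than its spread in males, and the female differences had adjusted p values of 0.520 and 0.572.

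Complex II is succinate dehydrogenase, the enzyme shared by the respiratory chain and the citric acid cycle, and all 4 of its subunits are nuclear. Its largest subunit, the flavoprotein Sdha, had 192 ± 20.8 CPM in Het and 198 ± 2.79 in KO-labelled females, and 215 ± 18.7 and 220.4 ± 19.0 in males. These are differences of 0.042 and 0.041 on the log2 scale, with 95% intervals from -0.25 to 0.33 and from -0.23 to 0.31. The iron-sulfur subunit Sdhb and the membrane anchor Sdhc had opposite signs in females. For Sdhb the libraries had 132, 125 and 194 CPM in Het and 127, 117 and 106 in KO-labelled females, which overlapped (log2 difference of -0.36 ± 0.17, adjusted p of 0.296). Sdhc had 50.7, 55.0 and 36.1 against 61.2, 64.7 and 68.0 CPM, without overlap (0.45 ± 0.17, adjusted p of 0.192).

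In males the signs of this pair were the other way round. Sdhb had 135, 151 and 134 CPM in Het and 164.3, 213 and 123 in KO-labelled males (log2 difference of 0.26 ± 0.17), and Sdhc 48.5, 50.8 and 46.6 against 46.1, 48.8 and 37.9 (-0.14 ± 0.14), both overlapping. The difference between the sexes was -0.61 for Sdhb (adjusted p of 0.362) and 0.59 for Sdhc (adjusted p of 0.289), neither past the threshold. The other anchor, Sdhd, had 118 ± 19.9 and 106 ± 3.29 CPM in females and 91.0 ± 9.77 and 89.1 ± 20.9 in males. The ratio of Sdhb to Sdhc transcripts thus varied between libraries.

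Complex III, the cytochrome bc1 complex, takes electrons from coenzyme Q to cytochrome c. In females 6 of its 8 members were below 0, with 0 called. Uqcrc1, a core protein on the matrix side (chr9:108936633-108949623), had 337, 260.2 and 412 CPM in Het and 244, 237 and 236 in KO-labelled females. Every KO-labelled library was below every Het library, with a log2 fold change of -0.50 ± 0.16 and an adjusted p of 0.146. In males Uqcrc1 had 273, 309 and 318 against 329, 415 and 217 CPM, where the highest and the lowest library of all were both KO-labelled. Its partner core protein Uqcrc2 had 107 ± 2.88 and 112 ± 4.53 CPM in females and 91.4 ± 10.6 and 82.9 ± 12.1 in males, though 19.7% of its exonic bases overlap another gene.

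The small subunit gene Uqcr11 had 49.8, 38.4 and 66.3 CPM in Het and 32.9, 39.7 and 41.9 in KO-labelled females, which overlapped through Het165 (log2 difference of -0.43 ± 0.19, adjusted p of 0.253). Uqcrb, the subunit that binds ubiquinone, had 76.6, 99.7 and 86.5 CPM in Het and 72.3, 80.7 and 64.9 in KO-labelled males (-0.27 ± 0.14, adjusted p of 0.472). About 25.5% of the 50-base stretches of Uqcrb transcripts also occur in other genes, so that its counts are uncertain. For Uqcrfs1, the catalytic Rieske protein, the interval of the change was -0.38 to 0.20 in females and -0.34 to 0.27 in males, so that its means of 186 and 175 CPM, and of 182 and 177, were indistinguishable. Uqcrh, the hinge protein, had 112 ± 9.96 and 110.3 ± 17.1 CPM in females and 130.4 ± 21.2 and 116 ± 5.67 in males. Uqcrq had 95 ± 14.6 and 85.4 ± 3.84, and 94.1 ± 9.77 and 108 ± 24.3. No member of complex III was separated by genotype in males.

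Complex IV, cytochrome c oxidase, reduces oxygen to water. Its 10 general nuclear subunits had a median log2 fold change of 0.11 in females (8 above 0) and -0.082 in males (2 above 0), with 0 called. Cox4i1, the largest nuclear subunit and a regulatory site for ATP, had 403, 378 and 363 CPM in Het and 415, 443 and 461 in KO-labelled females. The groups were just apart, by 0.20 ± 0.13, at an adjusted p of 0.447. In males Cox4i1 had 371, 426 and 449 against 430.4, 457 and 443 CPM, which overlapped. Cox8a ranged from 143 to 167 CPM in Het and from 148 to 223 in KO-labelled females, and from 175 to 197 and 168 to 200.3 in males. Cox6a1, Cox6b1, Cox7a2 and Ndufa4 had log2 fold changes of 0.051, 0.16, 0.086 and 0.12 in females and -0.13, -0.097, -0.17 and -0.032 in males, with SE of 0.13 to 0.18. Cox5b lay lower in both sexes without passing, at -0.14 ± 0.15 and -0.20 ± 0.15.

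Cox7a2l encodes a factor known for joining complex III and complex IV into supercomplexes. Counts per gene do not show which allele of it these mice carry or whether its protein works. Cox7a2l had 135, 148 and 130.3 CPM in Het and 163, 168 and 163 in KO-labelled females, without overlap. In males it had 109.8, 127 and 172 against 165.8, 138 and 213 CPM, which overlapped. The log2 fold changes were 0.25 ± 0.13 and 0.34 ± 0.19, the same sign in both sexes. Their average of 0.30 had an adjusted p of 0.203, and 13.8% of the 50-base stretches of this gene occur elsewhere in the transcriptome, mostly in the pseudogene-like model Gm6969.

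The low isoforms of complex IV gave wide intervals. In females Cox7a1 had 0.373, 0.386 and 2.22 CPM in Het and 2.63, 0.416 and 0.617 in KO-labelled libraries, and in males 0.948, 0.618 and 0.284 against 1.42, 0.755 and 1.20. Cox8b ranged from 0.393 to 2.30 CPM over all libraries, and its interval in females was -0.70 to 1.44. Cox6b2 ranged from 0.846 to 2.50 CPM. Ndufa4l2 had 0.574 ± 0.258 and 0.344 ± 0.0907 CPM in females and 1.73 ± 0.596 and 1.58 ± 1.22 in males. All of these groups overlapped in each sex, and at this depth the intervals reached beyond 2-fold.

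In complex V the F1 head, which makes ATP, was above 0 for all 5 of its nuclear genes in females (median of 0.31) and for 1 of 5 in males (median of -0.16), with 0 called. Atp5b (chr10:128083273-128090391) had 1246, 1271 and 936 CPM in Het and 1289.7, 1456 and 1562 in KO-labelled females. In males it had 1107, 1262 and 1150.4 against 981, 1079 and 907 CPM. The KO-labelled libraries lay above all Het libraries in females and below them in males, by 0.31 ± 0.16 (adjusted p of 0.334) and -0.24 ± 0.13 (adjusted p of 0.482). The difference between the sexes was 0.57 ± 0.20, with an interval from 0.14 to 0.99 and an adjusted p of 0.280. Among the Het females, Het181 lay lowest and the other libraries close below KO166.

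A pair of smaller F1 genes had the same sign in females. Atp5e, the epsilon subunit of the central stalk, had 37.6, 39.6 and 32.1 CPM in Het and 41.5, 51.3 and 62.9 in KO-labelled females, without overlap (0.51 ± 0.17, adjusted p of 0.150). Atp5d, the delta subunit, had 108, 121 and 71.4 against 118, 132 and 158 CPM, which overlapped (0.44 ± 0.19, adjusted p of 0.255). In males Atp5e had 39.7 ± 3.11 and 39.3 ± 7.11 CPM and Atp5d 136 ± 11.5 and 122 ± 10.4. For Atp5a1, the alpha subunit, the log2 fold changes were 0.12 ± 0.14 and -0.19 ± 0.12, and for Atp5c1, the gamma subunit, 0.21 ± 0.13 and 0.13 ± 0.14.

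The c ring genes Atp5g1, Atp5g2 and Atp5g3 have different leader peptides that are cut off on import. Atp5g2 (chr15:102662864-102672352) had 16.3, 28.2 and 15.3 CPM in Het and 32.2, 35.4 and 44.7 in KO-labelled females. All KO-labelled libraries were above all Het libraries, by 0.90 ± 0.23 on the log2 scale (interval from 0.39 to 1.41), with an adjusted p of 0.0726, the smallest of any member. In males Atp5g2 had 18.3, 24.4 and 19.7 against 19.5, 22.4 and 22.6 CPM, a difference of 0.049 ± 0.16. The difference between the sexes was 0.86 ± 0.30 (adjusted p of 0.264). The female change of Atp5g2 passed with DESeq2 (adjusted p of 0.00645), with all 12 libraries in 1 edgeR fit (0.0238), without the filter on low counts (6.77e-05) and without Het165 (1.24 on the log2 scale, 0.00282). It did not pass with limma voom, with other scaling in edgeR, or without any other library. About 38.3% of its 50-base stretches occur in other genes, mostly Gm10175, and 4.48% of its exonic bases overlap the microRNA gene Mir688.

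Atp5g3 had 67.4, 66.1 and 62.0 CPM in Het and 66.5, 86.0 and 93.1 in KO-labelled females, and 52.8, 55.5 and 57.6 against 50.4, 47.0 and 43.8 in males. In females KO166 lay among the Het libraries, and in males all KO-labelled libraries were below the Het ones. The log2 fold changes were 0.32 ± 0.15 (adjusted p of 0.277) and -0.23 ± 0.13 (adjusted p of 0.523), and the sexes differed by 0.56 ± 0.19 (adjusted p of 0.254). Atp5g1, the most abundant of these 3 by CPM, had 92.5 ± 10.04 and 83.0 ± 7.53 in females and 108 ± 10.4 and 100.3 ± 32.5 in males. As shares of the summed CPM of the 3 genes, Atp5g2 took 9.03, 16.1 and 8.64% in Het and 18.6, 16.8 and 20.1% in KO-labelled females, and 10.6, 12.2 and 11% against 11.8, 11 and 16.6% in males. Atp5g1 took 46.2 to 56.3% and 38.1 to 43.1% in females. These shares separated the female groups and not the male groups, and they have no test of their own.

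**Figure D3:**
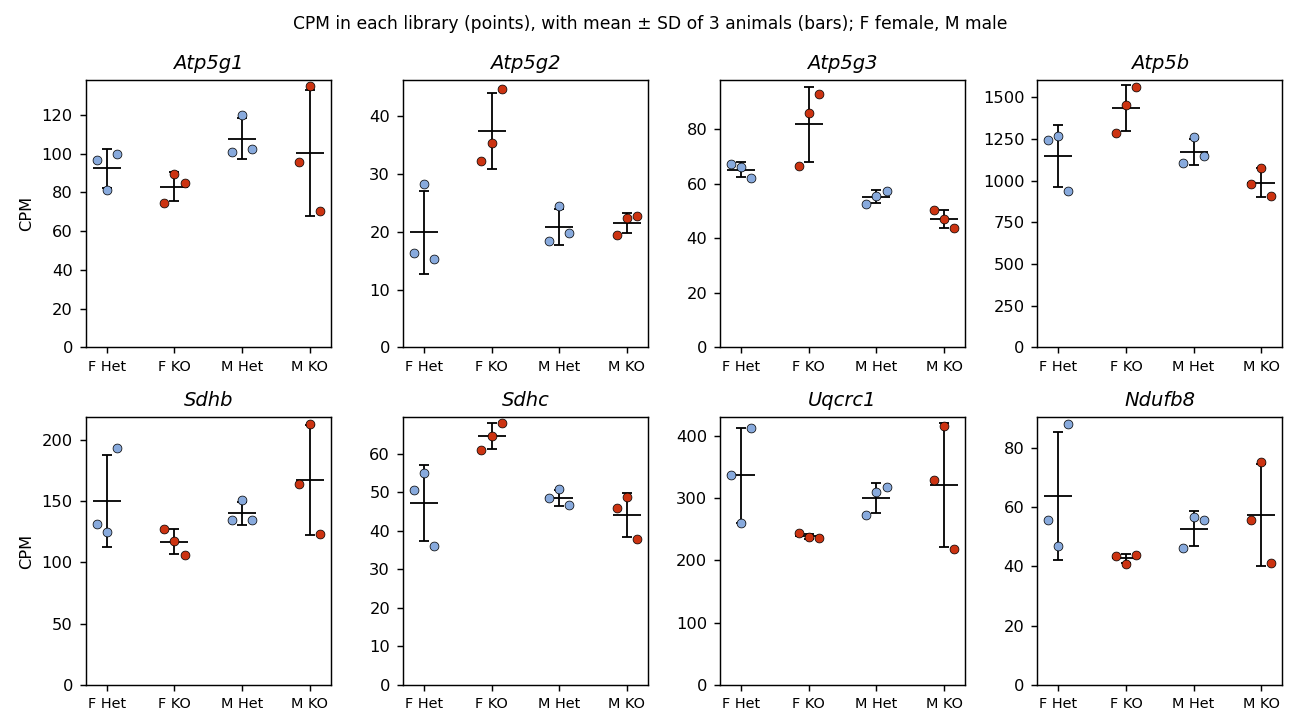
CPM of 8 members (y axes, each from 0) in female and male Het and KO-labelled libraries (x axes), with points for the 3 libraries of a group and bars for the mean and SD. Atp5g2 lies at 32.2 to 44.7 in KO-labelled and 15.3 to 28.2 in Het females, and the spread of Uqcrc1, Ndufb8 and Sdhb is widest in Het females and KO-labelled males.

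The membrane part and peripheral stalk of the synthase hold the ring and the head in place. Their 8 genes had medians of -0.0037 in females and -0.059 in males. Atp5mpl, a small proteolipid of the membrane part, had 31.5, 38.5 and 37.7 CPM in Het and 26.2, 30.7 and 24.2 in KO-labelled males, without overlap (-0.41 ± 0.15, adjusted p of 0.284). In females it had 35.0 ± 2.92 and 36.3 ± 2.45 CPM, and the sexes differed by 0.46 ± 0.20 (adjusted p of 0.365). Atp5s was at 6.60 ± 1.87 and 5.99 ± 1.17 CPM in females and 6.34 ± 0.313 and 7.70 ± 1.57 in males. Atp5o, the stalk subunit OSCP, has 47.9% of its exonic bases overlapped by other genes and was not read further. Atpif1, the inhibitor that stops the synthase from running backwards and no member by symbol, had 41.5 ± 3.30 and 52.6 ± 2.85 CPM in females (0.34, adjusted p of 0.214) and 30.1 ± 5.23 and 37.6 ± 9.25 in males (0.32, adjusted p of 0.557).

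For 10 of the 81 members (12.3%) the change differed between the sexes at an unadjusted p of 0.05 by edgeR. Over all genes 12.4% did (5.99% above 0 and 6.39% below), so that the members' count is near the background. These were Ndufb8, Sdhb and Uqcrc1, lower in KO-labelled females relative to males, and Sdhc, Atp5b, Atp5d, Atp5e, Atp5g2, Atp5g3 and Atp5mpl, higher. By complex these were 1 of 35 members in complex I, 2 of 4 in II, 1 of 8 in III, 0 of 17 in IV and 6 of 17 in V. No complex was tested as a set. None of the 10 members passed after adjustment, and the smallest adjusted p was 0.254.

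Members also differed together between animals of the same group. Male KO247 and KO255 differed by a median of 0.49 on the log2 scale over the 81 members, with 72 higher in KO247, while the median over all genes was -0.030. Every complex took part, with medians from 0.31 for complex V to 0.59 for complex I. Relative to the mean of the group, KO247 had 73 members above it, KO240 had 37 and KO255 had 8. In Het females 63 members of Het181 and 20 of Het165 were above the mean of the group, a median difference of 0.22 between these 2 animals. In KO-labelled females 20 were above it in KO166 and 60 in KO188. In Het males the extremes were Het245 with 67 and Het204 with 15.

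**Figure D4:**
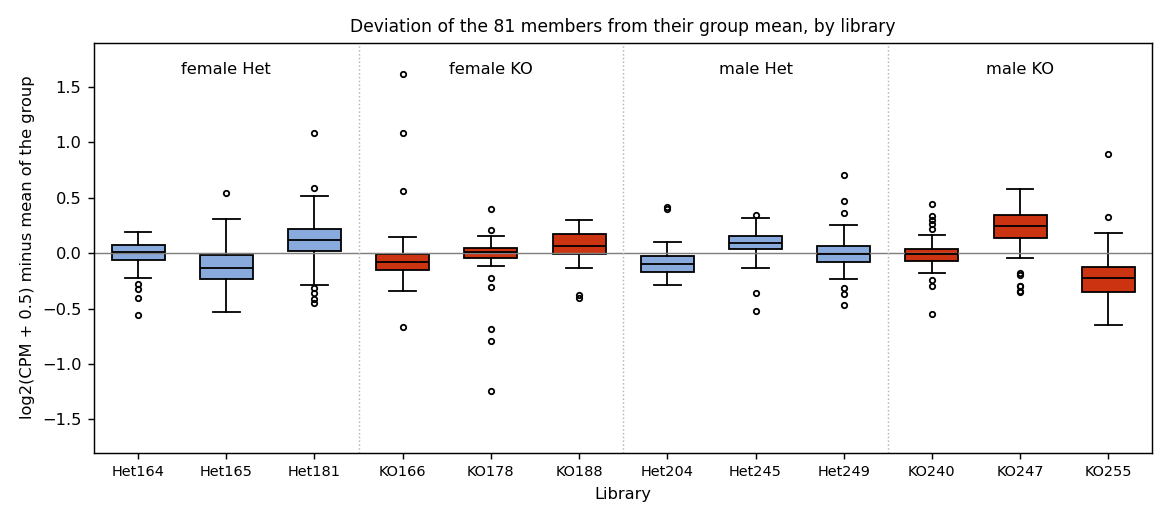
Boxes show, for each library (x axis), the log2(CPM + 0.5) of the 81 members minus their mean in the group (y axis), with the median, quartiles and single outlying members. KO247 lies above 0 with a median of 0.24 and KO255 below it with -0.22, while the other libraries have medians between -0.13 and 0.12.

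The median SD between animals was 0.27 over members in KO-labelled males, against 0.19 over genes of similar level. It was 0.16 and 0.21 in Het females, 0.11 and 0.12 in KO-labelled females, and 0.14 and 0.14 in Het males. The respiratory genes were thus more variable than genes of similar level in 1 group of 4. Beside this, the 10 endothelial markers summed to 147 CPM in KO247 and 301 in KO255 (192 to 200.9 in Het males), and the 5 red blood cell markers to 20.5 and 78.8 (29.0 to 44.6), with Hbb-bt at 0 in 1 of the 12 libraries. In KO240, the remaining animal of this group, these sums were 122 and 16.9 CPM, both below those of KO247. The satellite cell markers summed to 17748 CPM in KO247, 17690.3 in KO255 and 16426 in KO240. KO247 had 19833 detected genes and KO255 had 21525. The part of these in the spread of the respiratory genes was not tested. Leaving out KO247 moved the male median of the members to -0.14, and leaving out KO255 moved it to 0.11.

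Genes that work with the complexes were read from lists of assembly factors, carriers and regulators. Of 52 tested factors that assemble the complexes 0 were called in females, 10 were above 0, and the median log2 fold change was -0.16. In males 0 of 51 were called, with a median of -0.048. The 13 citric acid cycle genes (median of 0.019 in females and -0.068 in males) and the 20 electron carrier and coenzyme Q genes (0.053 and 0.047) had 0 called in either sex. At an unadjusted p of 0.05 edgeR gave 3, 5 and 5 genes of these lists in females and 3, 1 and 2 in males. These were 5.77, 38.5 and 25% of the list genes tested in females, where 17.9% of all genes reached that level. In males they were 5.88, 7.69 and 10%, against 12.4% of all genes. Cytochrome c itself, Cycs, had 238, 144 and 277 CPM in Het and 128, 136 and 149 in KO-labelled females, where only Het165 overlapped (-0.68 ± 0.20, adjusted p of 0.116).

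The regulators of respiratory genes, of which 13 were tested in females and 12 in males, had medians of 0.031 and -0.0038 with 0 called. At an unadjusted p of 0.05 edgeR gave 0 of them in females and 2 (16.7%) in males, against 17.9% and 12.4% of all genes. Nrf1 had 99.1 ± 20.4 and 80.6 ± 4.27 CPM in females and 95.3 ± 16 and 93.7 ± 9.57 in males. Of the 13 mRNAs of mitochondrial DNA, which encode the partners of these subunits, 11 were tested and 0 were called. At an unadjusted p of 0.05 edgeR gave 2 of the 11 (18.2%) in females and 1 (9.09%) in males, beside the same shares of all genes. The median of the 11 was 0.078 in females and 0.13 in males, where all 11 were above 0. The only call in these lists was Ucp2, an uncoupling protein homologue, from a list of 5 inner membrane carriers of which 4 were tested. In males 1 of these 4 was called lower, where 0.157% of all genes were. At an unadjusted p of 0.05 edgeR gave 1 of the 4 in females and 2 in males, against 17.9% and 12.4% of all genes. Ucp2 had 28.1, 22.2 and 22.2 CPM in Het and 11.8, 10.5 and 14.3 in KO-labelled males, without overlap, and fell by 0.98 ± 0.18 on the log2 scale (adjusted p of 0.0259). In females Ucp2 ranged from 14.1 to 48.4 CPM in Het and from 22 to 64.9 in KO-labelled libraries (adjusted p of 0.623), and the difference between the sexes had an adjusted p of 0.344.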

How the data were processed

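RNA of freshly isolated satellite cells was made into cDNA by Smart-Seq2 and into libraries with Tn5, per the labels' protocols. The authors deposited raw counts of read pairs per gene (featureCounts 2.0.0, exons of Ensembl GRCm38 release 99, without strand, per the file headers), in 1 table per sex. STAR, Subread and DESeq2 are named, without a version, in the submitters' processing notes. The tables held 55385 genes and 0 columns of other samples, and 55144 genes were given a symbol from the reference table of gene names. Exon lengths are those deposited in the tables.

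Libraries were scaled by TMM in edgeR 4.0.16 (R 4.3.3) and genes filtered by filterByExpr (minimum count of 10). Each sex (6 libraries) had its own fit of genotype, with the robust quasi-likelihood test and Benjamini-Hochberg adjustment over all genes tested, at 0.05. The average and the female minus male difference came from 1 fit of 12 libraries. CPM are TMM-scaled, and 3 counts correspond to 0.144 to 0.237 CPM. Total counts were 13042039 to 19273245. Alternatives were RLE size factors, column totals, no filter, DESeq2 1.42.0, limma voom (limma 3.58.1), all 12 libraries in 1 fit and leaving out each library. The analysis was tested on simulated data.

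Exonic overlap was taken from the deposited exon positions, and shared 50-base stretches from GENCODE M21 transcripts. By these measures 11 members overlapped another gene over at least 10% of their exonic bases, and 19 shared at least 10% of their stretches. Members were named by a rule: the 3 lowest p in each complex and sex, the highest and lowest level in each complex, the paralog sets of complex IV and the c ring, and called genes of the other lists. The values of 1 member that this rule names are not reported here. Further members of a role, and Cycs and Nrf1, were named after their values were seen. The members and lists were chosen with earlier results of these data known.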

Additional observations from a re-analysis of the deposited data

How the results depend on the processing

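In females, edgeR called 0 members higher and 0 lower. Without the filter on low counts 1 member was called higher (Atp5g2) and 1 lower (Ndufb8), where 1.75% of all genes were called higher and 1.69% lower. With DESeq2 1 was higher, and with all 12 libraries in 1 fit 1 was higher, Atp5g2 in each. In these 2 settings 6.12% and 3.23% of all genes were called. Leaving out each library in turn gave 0 to 2 higher and 0 to 5 lower in females, with all of these calls made without Het165, where 10.2% of all genes were called (0.993 to 1.41% without any other female library). For the average over sexes 1 member was higher without the filter, where 2.71% of all genes were called. With a library left out 0 to 1 were, the 1 being Atp5g2 without Het165, where 6.14% of all genes were called. For the difference between the sexes the count was 0 to 1, again Atp5g2 without Het165 (adjusted p of 0.0264 by edgeR), where 1.36% of all genes were called. The causes were not tested. RLE size factors, column totals and limma voom gave 0 calls, and males had 0 in every setting run. The member median ranged from -0.012 to 0.093 in females and from -0.14 to 0.11 in males with a library left out, and was 0.10 in females on column totals. No paired analysis was possible because each number in the labels belongs to 1 animal and no number is shared between groups. With 3 animals a group, a gene at a few counts per library, such as Cox6a2 (lowest count of 4), is limited by depth.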

Other observations

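Several genes that work at the complexes fell outside the selection by symbol. Ndufab1, the acyl carrier protein that is also a subunit of complex I, had log2 fold changes of -0.28 in females and -0.0040 in males (KO-labelled over Het). Usmg5, a small membrane subunit that joins ATP synthase dimers, had -0.027 and -0.23. Neither passed the edgeR test in either sex. Cox4i2, under the limit of the selection, had 0.480, 1.40 and 0.688 CPM in Het and 0.431, 0.357 and 0.337 in KO-labelled females, and 1.11, 0.955 and 0.681 against 0.567, 1.36 and 1.53 in males. The female groups did not overlap and the male groups did, at a few counts per library, and the gene was too low for the test in females.

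Among the mRNAs of mitochondrial DNA, mt-Cytb, the catalytic core of complex III, had a change that differed most between the sexes among the 11 tested. It had 8084 ± 2485 CPM (SD, n = 3) in Het and 4663 ± 129 in KO-labelled females, with a log2 fold change of -0.79 and an adjusted p of 0.0689. In males the log2 fold change was 0.35 with an adjusted p of 0.424, and the difference between the sexes was -1.14 with an adjusted p of 0.129. None of these passed the edgeR threshold. The nuclear core proteins of the same complex, Uqcrc1 and Uqcrc2, had log2 fold changes of -0.50 and 0.059 in females.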
